A study of Mus musculus with 24 samples.

Results

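Nonagouti (a) and 3 genes that lie around it on mouse chromosome 2, Raly, Eif2s2 and Ahcy, were followed through the differentiation of embryonic stem cells with 1 or 2 working copies of the chromatin gene Smchd1. These 4 genes, of 35591 in the count table, were taken by symbol. Nonagouti had been chosen by its measured counts, which differed between the genotypes on day 2, and its neighbours by position, so that its differences between genotypes, on day 2 and on the other days from the same lines, are given below as descriptions only. RNA-seq read counts came from 24 libraries of male mESC (mouse embryonic stem cell) cultures, with each line derived from a separate blastocyst of a cross between a Castaneus Smchd1+/+ mother and a father of the C57BL/6 strain that was Smchd1 del/fl and carried MMTV-Cre T/+. Lines were Smchd1[fl/+], called wt, or Smchd1[del/+], called het, with the deleted allele inherited from the father, and there were 3 lines of each genotype. Each line was sampled on day 0 in serum medium with LIF and then at 3 times, day 2, day 2.5 and day 3, on the way towards neuromesodermal progenitors in N2B27 medium with bFGF, the Wnt agonist CHIR99021 being present from day 2, which gave 8 groups of 3 libraries. The wt lines shared with the het lines an F1 hybrid background and a father that carried the MMTV-Cre transgene, whose promoter is that of a mouse mammary tumour virus, and per the study animals with this transgene also held some FVB genome. The counts are not split by parental allele.

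Nonagouti encodes agouti signalling protein, a secreted ligand that blocks the melanocortin 1 receptor on pigment cells and so switches hair pigment from black to yellow. C57BL/6 mice carry the nonagouti allele, in which a retrovirus-like insertion in an intron lowers expression of the gene in skin. Raly encodes an RNA-binding protein of the hnRNP C family, Eif2s2 the beta subunit of the translation initiation factor eIF2, and Ahcy the enzyme that splits S-adenosylhomocysteine, the by-product of methyl transfer, into adenosine and homocysteine. The genes have a shared history in genetics, since in the lethal yellow allele a deletion that takes out Raly coding sequence and Eif2s2 places agouti under the Raly promoter.

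In GRCm38, the build of the files, nonagouti (ENSMUSG00000027596, protein coding) spans chromosome 2 from 154791402 to 155051012 on the plus strand, 259.6 kb, and its exons cover 1169 bases in 6 annotated transcripts. Raly (ENSMUSG00000027593) lies on the same strand from 154791096 to 154867261. Eif2s2 (ENSMUSG00000074656, minus strand, 154871410 to 154892935) sits wholly inside an intron of the nonagouti transcript with the widest span, a-204, and Ahcy (ENSMUSG00000027597, minus strand, 155059310 to 155074497) follows nonagouti. Transcript a-204 begins at 154791402 within exons at the start of Raly. The overlap covers 147 exon bases, from 154791402 to 154791548, which is 12.6% of nonagouti exon sequence and 4.47% of that of Raly. The other annotated nonagouti transcripts begin at 154951180 or later. Reads over the shared exon cannot be assigned to one gene, and 94.0% of the 75-base stretches (the read length) of nonagouti transcripts occurred in no other annotated transcript, against 97.9% for Raly, 92.1% for Eif2s2 and 34.1% for Ahcy. Most of the Ahcy remainder is shared with Gm4737, a gene on chromosome 16 with 238 to 674 counts per library, so part of the Ahcy signal may be split between the 2.

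Promoters at 2 of the starts of annotated nonagouti transcripts differ in CpG content, which is why they are shown here. A further start, at 154951180 for a-203 and 154951219 for a-202, is not shown. Sequence is from RefSeq on GRCm38.p6, plus strand, 5′ to 3′, ending just before the first annotated transcript start in the window, with CpG dinucleotides in capitals. The first lies at chr2:155013320-155013471, before the nonagouti transcripts a-206 and a-201, and the second at chr2:154790860-154791095, before the Raly transcripts and 307 bases upstream of the start of a-204.
a: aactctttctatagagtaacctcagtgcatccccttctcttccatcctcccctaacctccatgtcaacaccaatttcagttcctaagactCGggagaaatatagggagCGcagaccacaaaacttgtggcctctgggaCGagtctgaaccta
Raly: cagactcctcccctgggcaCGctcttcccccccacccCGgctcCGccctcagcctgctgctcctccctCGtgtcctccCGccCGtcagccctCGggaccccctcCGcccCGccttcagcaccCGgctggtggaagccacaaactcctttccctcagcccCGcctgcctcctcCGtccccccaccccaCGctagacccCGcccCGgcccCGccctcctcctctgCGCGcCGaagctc
The 250 bases before the RefSeq start of nonagouti held 3 CpG dinucleotides with 50.0% G+C, and 29.0% of 32851 RefSeq promoters of that length held fewer. The same window of Raly held 19 CpG dinucleotides with 72.8% G+C, and 80.3% of promoters held fewer. Those of Eif2s2 and Ahcy held 18 and 9, where the median promoter had 6. Nonagouti was thus the one of the 4 below the median in CpG.

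The 24 libraries held between 7102655 and 20818018 counts, and all but wt line 2 on day 2.5, the smallest, held over 2 times as many as it. Counts per 1000000 counts of a library (CPM) were scaled by TMM factors, and reads per kilobase of exon on the same basis (RPKM) were derived from them for comparisons between genes. Smchd1, the deleted gene, was lower in every het library than in every wt library of its day, with a log2 fold change of -0.76 (SE 0.07, edgeR quasi-likelihood adjusted p 0.00556) on counts summed per line. Pluripotency markers summed to 2566 to 2808 CPM on day 0 and 312 to 590 CPM on day 3, while the 8 neuromesodermal progenitor markers went from 3.04 to 7.37 CPM on day 2 to 671 to 1303 CPM on day 2.5 in wt and 855 to 1112 CPM in het. Extraembryonic endoderm markers (19 genes) were also abundant and less so in the het lines, where 12 of 17 tested were called lower on day 2, against 0.5% of the 15414 genes tested, and the median of their log2 fold changes was -1.05. The wt line 1 libraries carried a raised median for genes on chromosome 8, by 0.11 to 0.21 on the log2 scale on all 4 days, against at most 0.05 in the other lines. The 8 melanocyte and neural crest markers summed to 29.3 to 42.0 CPM on day 0 and 5.63 to 9.66 CPM on days 2.5 and 3. The pigment enzyme Dct had 1 count in all libraries together, Tyr was at 0 in 20 of 24 and Sox10 in 13, while Pmel (23 to 179 counts) and Mitf (14 to 178 counts) were read in every library, and Foxd3, Mlana and Tfap2a reached 372, 45 and 29 counts.

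Nonagouti was by far the lowest of the 4 genes and varied by far the most. Per exon length, its median level over the 24 libraries was 0.872 RPKM, against 66.6 RPKM for Ahcy, 82.7 RPKM for Raly and 96.7 RPKM for Eif2s2. Its CPM ranged from 0.112 to 11.1, a 98.5-fold range, whereas the range was 1.63-fold for Raly and 1.64-fold for both Eif2s2 and Ahcy. The SD of log2 CPM (prior count 2) within groups of 3 lines averaged 1.71 for nonagouti, the highest of the 17543 genes that passed the count filter, whose median was 0.27. Among 1317 genes with a mean log2 CPM within 0.5 of that of nonagouti the median was 0.65, with nonagouti at the top of these as well. For Raly, Eif2s2 and Ahcy the SD was 0.09, 0.10 and 0.14. This ranking was looked for after the values had been seen.

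On day 0, nonagouti was read 118, 6 and 7 times in wt lines 1, 2 and 3, and 2, 118 and 56 times in het lines 1, 2 and 3. A single wt line and a pair of het lines were therefore high, and the genotypes overlapped; 17% of genes had groups that did not overlap on that day, and 15.8% on day 2. On day 2, the counts were 9, 5 and 4 in wt and 37, 185 and 123 in het. Here the het lines had no overlap with the wt lines and stood higher, as in 8.3% of the 15414 genes tested, and the wt line that had been high on day 0 was not. On day 2.5, the wt lines had 37, 10 and 11 counts and the het lines 10, 144 and 159. On day 3, there were 8, 11 and 9 counts in wt and 7, 142 and 117 in het. On both of these days het line 1 lay within or below the wt range and only the other two het lines stood above it, and 11.6% and 14% of genes had groups that did not overlap. Exact 95% Poisson intervals, which cover counting error only, were 0.24 to 7.22 for the 2 counts of het line 1 on day 0 and 97.7 to 141 for the 118 counts of het line 2.

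The same 2 het lines were high on each day. Het line 2 stayed between 6.68 and 11.1 CPM and het line 3 between 3.69 and 7.99 CPM on all 4 days, whereas het line 1 was at 0.112, 2.25, 0.491 and 0.360 CPM on days 0, 2, 2.5 and 3. Het line 1 was lower than both other het lines on every day, by at least 4.07, 1.78, 3.66 and 3.64 on the log2 CPM scale. Among the wt lines, lines 2 and 3 never exceeded 1.37 and 0.646 CPM, while line 1 was at 7.35 CPM on day 0, at 0.442 CPM on day 2, at 1.99 CPM on day 2.5 and at 0.367 CPM on day 3. Summed over the 4 days, nonagouti had 172, 32 and 31 counts in the wt lines and 56, 589 and 455 in the het lines. Over lines, the summed counts of the genotypes overlapped, since wt line 1 exceeded het line 1.

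**Figure D1:**
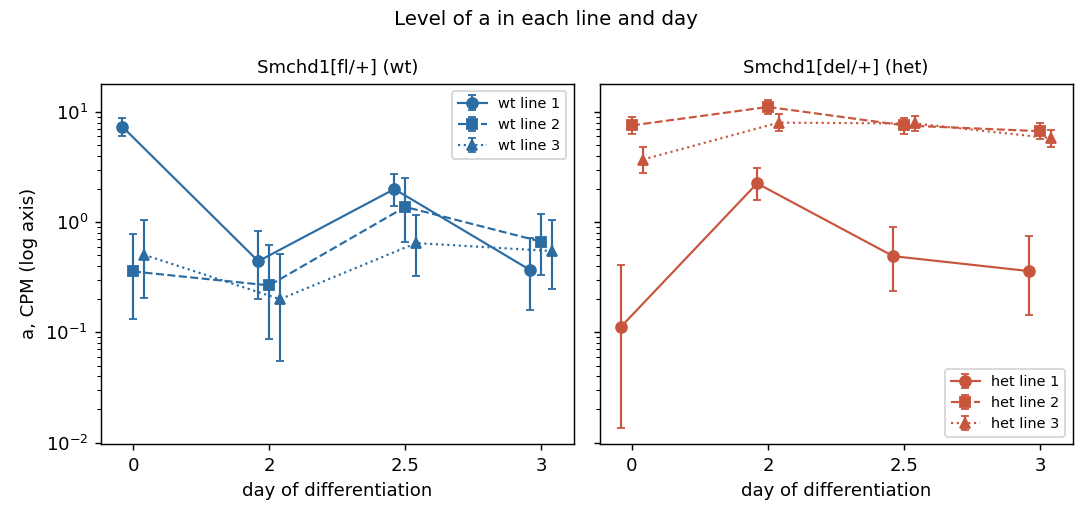
Nonagouti CPM (log axis) against day of differentiation for the 3 wt lines (left) and the 3 het lines (right), with exact 95% Poisson intervals as bars. Het lines 2 and 3 stay between 3.69 and 11.1 CPM, het line 1 lies below them on each of the 4 days, and wt line 1 is at 7.35 CPM on day 0 alone.

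To see how unusual a line that stands apart was, all 17543 genes were searched for those in which 1 line lay at least 2-fold from both other lines of its genotype on all 4 days. In the het lines nonagouti, low in line 1, was the only such gene in either direction. In the wt lines there were 4, namely Foxa2, a forkhead factor of endoderm, and BB218582 (both low in line 1), Gm26901 (high in line 1) and Ppp1r36 (high in line 2). None of the neighbours of nonagouti was among them. This search was added after the values had been seen and has no test.

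The study made these cells to ask whether a single Smchd1 copy alters Hox gene expression when the mother's SMCHD1 is present, and the same comparison is given here for nonagouti, whose het to wt difference varied between days. The mean was 2.74 ± 4.0 CPM for wt lines and 3.78 ± 3.71 CPM for het lines on day 0 (SD, n = 3), and the log2 fold change was 0.40 (SE 1.04, edgeR). On day 2 the wt mean was 0.303 ± 0.125 CPM and the het mean 7.10 ± 4.48 CPM (SD, n = 3), the contrast by which the gene was picked, and the fold change from this fit was 22.7 (95% interval 9.18 to 56.4). In this comparison 85 genes (0.551% of 15414) were called, and 8 of them (0.0519%) were higher in het. On day 2.5 the means were 1.34 ± 0.675 CPM and 5.29 ± 4.16 CPM (SD, n = 3), with a log2 fold change of 1.98 (SE 0.75). On day 3 they were 0.526 ± 0.150 CPM and 4.27 ± 3.42 CPM (SD, n = 3), with a log2 fold change of 3.03 (SE 0.81). On counts summed per line the fold change was 4.58 (95% interval 1.46 to 14.4).

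edgeR called 0 genes (0%) on day 0 and 0 genes (0%) on day 2.5, where 1649 and 822 genes had an unadjusted p under 0.05 and the DESeq2 Wald test called 82 and 3. It called 1 gene (0.00638%) on day 3 and 1 gene (0.00544%) on the summed counts, Smchd1 in both cases. The libraries of days 2.5 and 3 came from the same lines as those of day 2, so they are further libraries and not further lines, and no test of nonagouti on them is independent of its choice. The day 0 value depended on single lines: without wt line 1 the log2 fold change was 3.10, and without het line 2 it was -0.60.

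Beside these differences, extraembryonic endoderm markers were lower in het. Their summed level was 2757 to 4315 CPM in wt and 1664 to 2281 CPM in het on day 0, and 8121 to 16125 CPM and 5083 to 6893 CPM on day 2. On days 2.5 and 3 the ranges overlapped, at 5520 to 14151 CPM in wt and 5720 to 8481 CPM in het, and at 5651 to 11027 CPM in wt and 4335 to 7025 CPM in het. All 19 genes were in the table, up to 3 of them at 0 in a library, with Ttr at 0 in 12 libraries and Afp in 16. In het lines 1, 2 and 3 this sum was 1664, 2281 and 2165 CPM on day 0, where nonagouti was at 0.112, 7.53 and 3.69 CPM, and 5083, 6893 and 6470 CPM on day 2, where nonagouti was at 2.25, 11.1 and 7.99 CPM. On day 2.5 the sum was 6602, 8481 and 5720 CPM with nonagouti at 0.491, 7.53 and 7.84 CPM, and on day 3 it was 4335, 6899 and 7025 CPM with nonagouti at 0.360, 6.68 and 5.77 CPM. Het line 1 thus had the lowest sum on days 0, 2 and 3 but not on day 2.5, and on day 2 the wt lines had higher sums than the het lines and lower nonagouti. In wt, line 1 had the lowest sum on each day, at 2757, 8121, 5520 and 5651 CPM. On days 0, 2 and 2.5 it had the highest nonagouti of the wt lines (7.35, 0.442 and 1.99 CPM), and on day 3 the lowest (0.367 CPM). The part of extraembryonic endoderm cells in the nonagouti values was not tested, and in bulk RNA fewer cells of a type and less RNA per cell cannot be told apart.

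Over the differentiation, the steps of nonagouti ran in opposite directions in the wt and het lines up to day 2.5. Day 2, by which the gene was picked, enters both of these steps, so their differences are descriptions. All 3 wt lines had lower CPM on day 2 than on day 0, and all 3 het lines had higher CPM, but wt lines 2 and 3 went only from 6 to 5 and from 7 to 4 counts, with overlapping Poisson intervals. The difference in step between genotypes had a log2 value of 4.11 (SE 1.43) in the edgeR fit, higher in het, and of 1.76 without wt line 1. Between days 2 and 2.5 all 3 wt lines went up and all 3 het lines down, het line 3 only from 7.99 to 7.84 CPM, and the difference was -2.55 (SE 1.08). Between days 2.5 and 3 all 6 lines went down, and the difference in step was 1.05 (SE 1.27, adjusted p 0.999 in the edgeR fit). edgeR called 0 genes (0%) in each of these 3 comparisons, with 1034, 850 and 635 genes at an unadjusted p under 0.05, and DESeq2 called 10, 0 and 0. With both genotypes together, no step of nonagouti passed the test (adjusted p 0.466, 0.517 and 0.378 in the edgeR fits).

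Raly was abundant and even in all lines. On day 0 it had 349, 283 and 287 CPM in wt lines 1, 2 and 3 and 268, 284 and 270 CPM in the het lines. On day 2 the wt lines had 277, 255 and 278 CPM and the het lines 256, 252 and 239 CPM. On day 2.5 the values were 324, 318 and 274 CPM in wt and 280, 277 and 282 CPM in het, and on day 3 they were 250, 214 and 239 CPM in wt and 244, 244 and 231 CPM in het. The genotypes overlapped on each day, with wt line 1 at the top of its group on 3 of the 4 days. The largest het to wt difference, on day 0, had a log2 value of -0.19 (SE 0.09; edgeR adjusted p 0.469), and on summed counts the fold change was 0.940 (95% interval 0.858 to 1.03, adjusted p 0.712 in the edgeR fit).

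Eif2s2 was the most abundant of the 4 genes. It had 658, 849 and 770 CPM in wt and 813, 805 and 867 CPM in het on day 0, and 712, 736 and 653 CPM in wt and 781, 715 and 687 CPM in het on day 2. On day 2.5 it had 529, 591 and 612 CPM in wt and 641, 575 and 634 CPM in het, and on day 3 it had 625, 646 and 654 CPM in wt and 606, 612 and 625 CPM in het. The ranges of the genotypes overlapped on each day, though barely on day 3. The het to wt log2 fold changes were 0.10, 0.04, 0.10 and -0.07 on days 0, 2, 2.5 and 3 (adjusted p 0.628 to 0.931), and the summed fold change was 1.01 (95% interval 0.932 to 1.10).

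Ahcy had 236, 198 and 194 CPM in wt and 200, 196 and 190 CPM in het on day 0, and 175, 157 and 183 CPM in wt and 180, 178 and 178 CPM in het on day 2. On day 2.5 it had 241, 225 and 172 CPM in wt and 208, 176 and 202 CPM in het, and on day 3 it had 193, 147 and 177 CPM in wt and 191, 181 and 168 CPM in het. The 3 het lines of day 2 agreed closely, while the wt lines spread around them. The het to wt log2 fold changes lay between -0.13 and 0.05 on the 4 days (adjusted p 0.610 to 0.931), and the summed fold change was 0.988 (95% interval 0.885 to 1.10). On summed counts, the intervals of the 3 neighbours together ran from 0.858-fold to 1.10-fold.

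**Figure D2:**
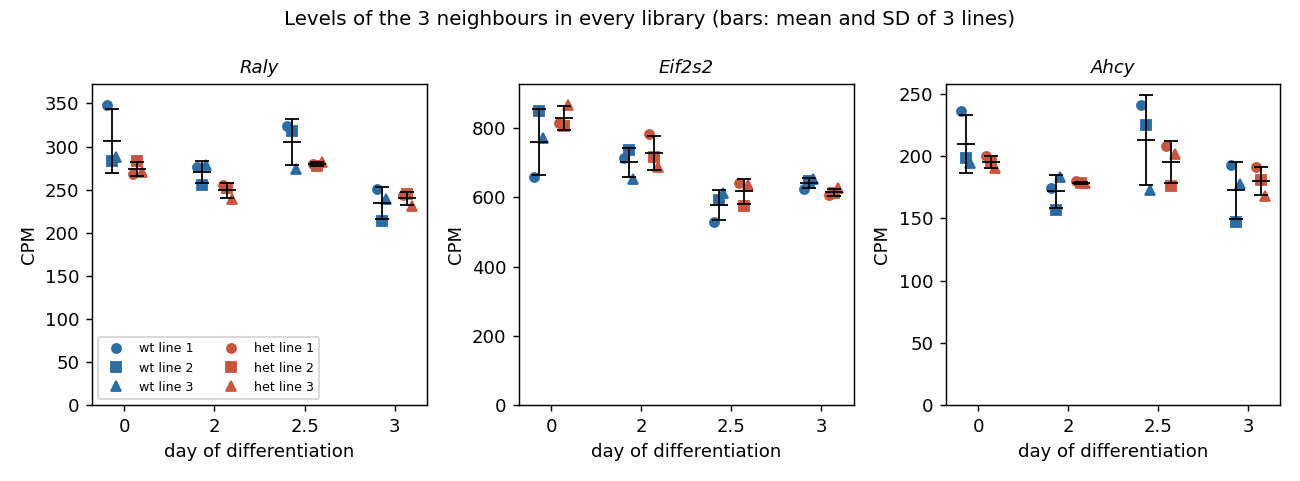
CPM of Raly, Eif2s2 and Ahcy in every library by day of differentiation, wt in blue and het in red, with a marker per line and the mean and SD of 3 lines as bars. The ranges of wt and het overlap in each gene on each day.

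**Figure D3:**
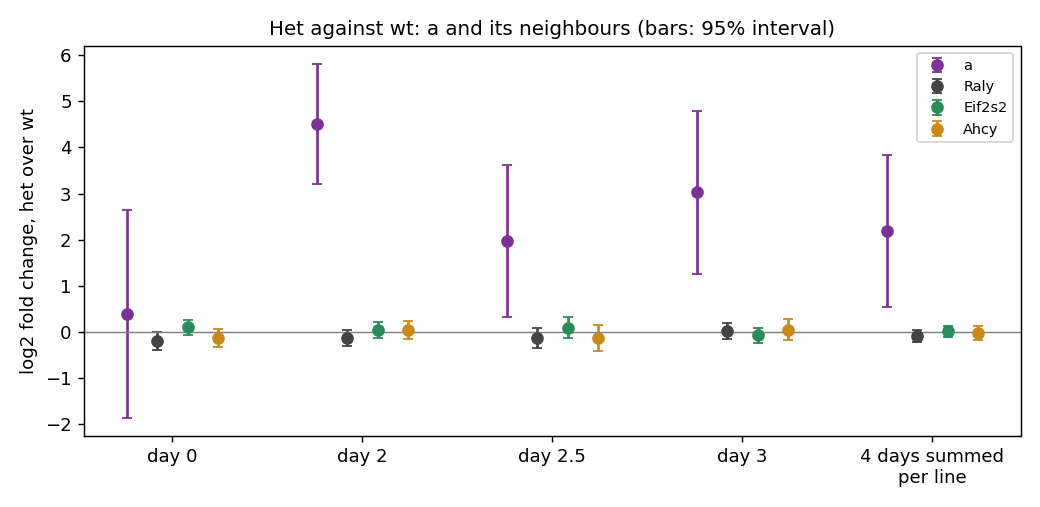
Log2 fold change of het over wt with its 95% interval for the 4 genes on each day and on counts summed per line (edgeR). The neighbours stay between -0.19 and 0.10, whereas nonagouti lies between 0.40 and 4.51 with wide intervals.

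The neighbours changed during differentiation, as did a large share of all genes. Between days 0 and 2, when 60.7% of 16387 genes were called (30.2% higher and 30.5% lower), Raly fell by 0.16 (SE 0.06, adjusted p 0.0291), Eif2s2 by 0.15 (SE 0.06, adjusted p 0.0253) and Ahcy by 0.21 on the log2 scale (SE 0.07, adjusted p 0.00923, edgeR). Between days 2 and 2.5 (49.9% of 16569 genes called, 24.8% higher and 25.1% lower) Raly rose by 0.17 (adjusted p 0.0279) and Ahcy by 0.22 (adjusted p 0.0329), and Eif2s2 fell by 0.26 on the log2 scale (adjusted p 0.00186, edgeR). Between days 2.5 and 3 (39.8% of 16486 genes called, 19.2% higher and 20.6% lower) Raly fell by 0.32 on the log2 scale (adjusted p 0.000744), while Eif2s2 was at 0.06 (adjusted p 0.459) and Ahcy at -0.22 (adjusted p 0.0507). No difference in step between genotypes passed the test for any of them (adjusted p 0.847 to 0.999 in the edgeR fits). With the line as a block, Ahcy was also called lower on day 3 (adjusted p 0.0321 in that edgeR fit). The day 2 calls of Raly and Eif2s2 were lost when library totals replaced TMM (adjusted p 0.137 and 0.173 in edgeR), and most leave-one-line-out fits lost them too.

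Genes of the wider region, the 3 neighbours included, were not called between genotypes either. The count table held 30 genes other than nonagouti within 500 kb of it, Raly, Eif2s2 and Ahcy among them, of which 19 to 22 passed the count filter in a comparison. Of these, 0 were called between het and wt on any day or on summed counts by edgeR, with 1, 1, 2, 0 and 1 at an unadjusted p under 0.05, which 1649, 1576, 822, 1432 and 1663 of all genes tested reached. Of all genes tested, edgeR called 0%, 0.551%, 0%, 0.00638% and 0.00544% in these comparisons, so 0 in a set of this size is near the background. The median log2 fold change of these genes within 500 kb was -0.07, 0.04, -0.10 and 0.01 on days 0, 2, 2.5 and 3, while that of all genes tested lay between -0.0053 and 0.0018. On day 2 the lowest was Acss2os at -1.35 (adjusted p 0.609) and the highest Gm14198 at 0.67 (adjusted p 0.894), an antisense RNA and a predicted gene with few counts. On day 0 the extremes were Zfp341 at -0.48 (adjusted p 0.508) and Cbfa2t2 at 0.18 (adjusted p 0.423), on day 2.5 Zfp341 at -0.83 (adjusted p 0.907) and Necab3 at 0.22 (adjusted p 0.944), and on day 3 1700003F12Rik at -0.89 (adjusted p 0.637) and Gm14198 at 0.74 (adjusted p 0.792), all in edgeR fits. Over the steps, in which 60.7%, 49.9% and 39.8% of all genes were called, 9 of these genes were called higher and 6 lower of 22 tested between days 0 and 2, 3 and 10 between days 2 and 2.5, and 6 and 2 between days 2.5 and 3, and the highest was 1700003F12Rik, which rose by 3.68 on the log2 scale between days 0 and 2 (adjusted p 0.001 in edgeR).

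**Figure D4:**
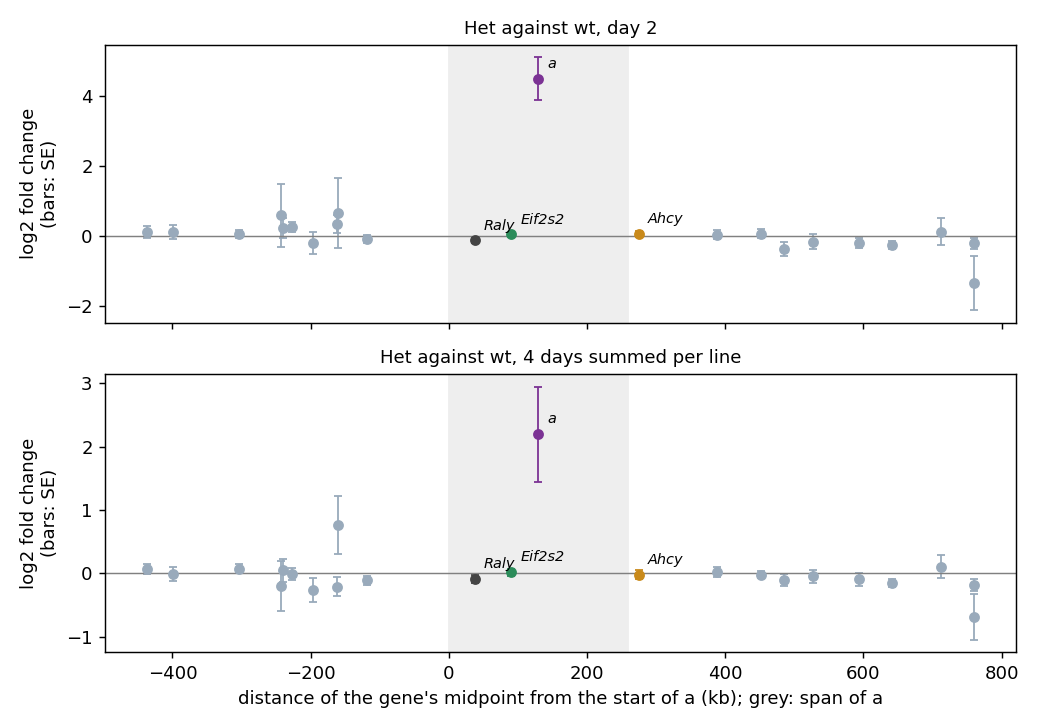
Log2 fold change of het over wt (bars, SE) against the distance in kb of each gene's midpoint from the start of nonagouti, on day 2 (top) and on counts summed per line (bottom), with the span of nonagouti in grey. Nonagouti lies at 4.51 and 2.20, and the neighbours Raly, Eif2s2 and Ahcy inside or beside its span lie near 0.

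A gene that lies inside nonagouti on the same strand, Gm14226 (155018266 to 155027104), did not follow it. It was at 0 in 20 of 24 libraries and had 10, 22 and 4 counts in wt lines 1, 2 and 3 on day 3, where all het lines were at 0, and 1 count in het line 3 on day 0. It did not pass the count filter and was singled out after its values were seen. A count of 0 allows up to 0.137 to 0.412 CPM in these libraries, the level of 3 counts.

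Partners of nonagouti in the melanocortin and pigment pathway ranged from absent to moderately expressed. Of the 23 genes of this list, 8 never reached 10 counts and 2, the corticotropin receptor Mc2r and the pigment enzyme Tyrp1, had 0 counts in all 24 libraries. The receptor it blocks in skin, Mc1r, had 0 to 14 counts, the related receptors Mc3r and Mc4r at most 3 and 4, and Mc5r up to 78. Its relative Agrp had 0 to 33 counts and the ligand precursor Pomc 4 to 51. The best expressed members per exon length were Mgrn1, a ubiquitin ligase needed for agouti action, at 8.36 RPKM on average, the receptor tyrosine kinase Kit at 4.96 RPKM and the melanosome protein Pmel at 2.73 RPKM. Leaving aside nonagouti, which was picked by its day 2 difference, edgeR called 0 members between het and wt among the 10 to 13 tested per comparison, nonagouti included, with at most 0.551% of all genes called in any of them. Of the others Mitf came closest, with log2 fold changes of -1.12 on day 2 and -0.58 on summed counts (edgeR adjusted p 0.309 and 0.447). Median log2 fold changes of the list, nonagouti included, were 0.04, -0.03, -0.12 and 0.05 on days 0, 2, 2.5 and 3.

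In the pathways of the neighbours edgeR likewise called 0 genes between genotypes, where 0% of all genes were called on days 0 and 2.5, 0.551% on day 2, 0.00638% on day 3 and 0.00544% on summed counts, so that 0 in lists of this size is near the background. In the methionine cycle, 15 to 18 of 19 genes were tested, and the highest per exon length after Ahcy were the methylthioadenosine phosphorylase Mtap (46.2 RPKM), the cystathionine lyase Cth (32.9 RPKM) and Ahcyl1 (30.6 RPKM). Cth came closest, with a log2 fold change of 0.40 on day 2 (adjusted p 0.104), and 4 of 15 members reached an unadjusted p under 0.05 on that day, as did 1576 of 15414 genes tested, with 0 on days 0, 2.5 and 3. All 17 genes of eIF2, its exchange factor and its kinases were tested, with Atf4 (163 RPKM), Eif2b5 (114 RPKM) and Eif2s1 (95.7 RPKM) among the highest. There Ppp1r15a, a phosphatase subunit that reverses eIF2 phosphorylation, came closest with -0.59 on day 2 (adjusted p 0.103), and 4, 2, 0 and 1 of the 17 had an unadjusted p under 0.05 on days 0, 2, 2.5 and 3, where 1649 of 15108, 1576 of 15414, 822 of 15588 and 1432 of 15686 genes tested did. Of the 9 genes tested among Raly and its hnRNP relatives, Hnrnpa1 (289 RPKM), Hnrnpa2b1 (211 RPKM) and Hnrnpc (180 RPKM) were the highest, with log2 fold changes on summed counts of -0.0027, 0.037 and -0.0044. Hnrnpu, at only 1.03 RPKM on average (88 to 576 counts), came closest in this group. Its log2 fold change was 0.38 on summed counts (adjusted p 0.436 in the edgeR fit) and 0.73 on day 3 (SE 0.31, adjusted p 0.517 in the edgeR fit).

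Over the 24 libraries, after the mean of each day was subtracted from log2 CPM, genes most like nonagouti among 17543 included Dok4 (Pearson r 0.73), Nxt2 (0.70), Lemd3 (0.70) and Bcap29 (0.70). None of these lies on chromosome 2. Dok4 lies on chromosome 8, where wt line 1 had a raised median, and the part of that in its r was not tested. These libraries share lines, 4 to a line, and the values are given as a description. The neighbours gave r of -0.01 for Raly, -0.18 for Eif2s2 and 0.07 for Ahcy.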

How the data were processed

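Poly(A) RNA from 24 mESC libraries (3 wt and 3 het lines on 4 days) was sequenced as 75-base single-end reads with stranded or non-stranded kits, which of the 2 for a given library being not given in the sources used here. The authors trimmed reads with Trim Galore 0.4.4, mapped them with HISAT2 2.0.5 to GRCm38.p6 and deposited raw gene counts from SeqMonk. The 8 deposited columns of group mean signal were not used, nor were log2 RPKM tables.

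Genes were tested with edgeR 4.0.16 in R 4.3.3 (quasi-likelihood, TMM, filterByExpr, Benjamini-Hochberg over all genes tested, threshold 0.05), on the 6 libraries of a day, on counts summed per line, and on the 12 libraries of adjacent days. Alternatives were DESeq2 1.42.0, other size factors, no filter, blocks and leaving out lines. RPKM used GENCODE vM21 exon lengths; gene coordinates of the files matched it in 99.5% of IDs. The fits were tested on simulated data. The members and gene lists were chosen with earlier results of these data known. Named genes were the 4 members, Smchd1, genes within 500 kb of nonagouti at the extremes, the 5 genes most like it (1 of them is not reported here), and, per pathway list, called genes and up to 3 others at the highest level. Lines are the replicates and each is a separate derivation, while libraries of 1 line on different days are paired by label.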

Additional observations from a re-analysis of the deposited data

Results flagged for a closer look

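The change of nonagouti between days differed in direction between the genotypes, with every line of a genotype moving one way and every line of the other moving the opposite way, in 2 of the 3 steps. Between days 0 and 2 its CPM went down in 3 of 3 wt lines and up in 3 of 3 het lines, and the mean log2 step (pseudocount 0.5 CPM) was 2.48 higher in het, at 1.24 against -1.25 in wt. Between days 2 and 2.5 it went up in 3 of 3 wt lines and down in 3 of 3 het lines, and the mean log2 step was lower in het, by a difference of -1.81, at -0.67 against 1.14 in wt. The edgeR interaction term had an adjusted p of 0.754 and 0.952 in these steps, which is no test of a gene picked by its day 2 counts. Most of the wt change in the first step came from line 1, which had 118 counts on day 0 and 9 on day 2, while wt lines 2 and 3 went from 6 to 5 and from 7 to 4 counts, with overlapping Poisson intervals. In the second step the intervals of wt line 3 overlapped as well (0.0545 to 0.512 and 0.322 to 1.16 CPM), and het line 3 was at 7.99 and then 7.84 CPM, with overlapping Poisson intervals (6.64 to 9.53 and 6.67 to 9.16 CPM), so the counts of 3 lines rest in both steps partly on changes within counting error. Day 2 is also the day on which the gene was picked, and it enters both steps, so these differences are descriptions.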

How the results depend on the processing

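The day 2 log2 fold change of nonagouti, by which it was picked and which is a description, lay between 4.03 and 4.93 under the 12 alternatives, and its call is not weighed, since it follows from the choice. On day 0 it ranged from -0.60 to 3.10 when 1 line was left out (-0.14 without wt line 2, -0.09 without wt line 3 and -0.60 without het line 2). Its values on the other days are descriptions as well, and their calls, which changed under some alternatives, are not weighed either. On day 2.5 the value lay between 1.51 and 2.51 under the 12 alternatives, at 1.98 without the count filter. On day 3 it was 3.03 without the filter, 3.02 with DESeq2 and 2.53 to 3.57 over lines left out. The summed value ran from 1.70 to 3.35 (without wt line 1). Its step from day 0 to 2 turned positive with the line as a block (0.11) and without wt line 1, in a range of -1.29 to 0.58. The causes were not tested.

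Neighbour values that changed sign all lay near 0 and had no call on either side. Leaving out 1 line gave ranges of -0.0051 to 0.078 for Eif2s2 and -0.018 to 0.096 for Ahcy on day 2, -0.045 to 0.067 for Raly and -0.055 to 0.13 for Ahcy on day 3, and -0.022 to 0.066 for Eif2s2 and -0.076 to 0.070 for Ahcy on summed counts. For the differences in step the ranges were -0.056 to 0.11 (Raly) and -0.14 to 0.020 (Eif2s2) from day 0 to 2, and -0.10 to 0.054 (Raly, 0.024 with library totals) and -0.026 to 0.13 (Eif2s2) from day 2 to 2.5.

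The number of genes called between genotypes depended strongly on the setting. On days 0, 2, 2.5 and 3 and on summed counts it was 369, 384, 87, 274 and 190 without the filter, and 82, 233, 3, 116 and 145 with DESeq2. In 1 fit of all libraries it was 1, 23, 1 and 15 on the 4 days. Leaving out 1 line gave 0 to 68, 0 to 211, 0 to 3, 0 to 93 and 0 to 404, the highest without wt line 2, wt line 1, het line 3, wt line 1 and wt line 1. The differences in step gave 58, 33 and 23 without the filter and 10 with DESeq2 for the first, and 0 to 2 and 0 to 1 over lines left out in the other two. Counts in the steps themselves stayed within 1.5 times the main count under all 12 alternatives.

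The wt and het lines of 1 number are different lines, and their residuals were not correlated above 0.1 in any of 12 pairs (-0.08 to 0.08). With the number as a block, 25, 100 and 50 genes were called on day 0, on day 3 and on summed counts. The same line on adjacent days gave -0.05 to 0.21. With the line as a block, 2 genes were called in the first difference in step, and the block changed no other call of the 4 genes than that of Ahcy on day 3. With 4 to 11 counts of nonagouti in most wt libraries, small differences between wt lines could not be resolved at this depth.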

Other observations

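In some other marker lists the summed levels of the genotypes did not overlap on single days, with 0 genes called by edgeR. Over all genes tested, 1649 of 15108 had an unadjusted p under 0.05 on day 0, 1576 of 15414 on day 2 and 1432 of 15686 on day 3. The 6 two-cell-like markers summed to 3.09 to 5.17 CPM in wt and 7.59 to 13.5 CPM in het on day 0, where all 5 tested were positive (median log2 fold change 1.49) and 3 had an unadjusted p under 0.05, whereas on day 2 the sums overlapped, at 1.76 to 6.14 CPM and 1.98 to 5.39 CPM. The 9 trophoblast markers summed to 257 to 269 CPM in wt and 215 to 233 CPM in het on day 0, with 3 of 9 at an unadjusted p under 0.05, and to 180 to 197 CPM and 143 to 176 CPM on day 2, with 1 of 8. Their sums overlapped on days 2.5 and 3, on day 3 at 298 to 347 CPM in wt and 317 to 405 CPM in het. On day 3, 2 of 8 reached an unadjusted p under 0.05, Krt7 and Krt8, both higher in het (log2 fold changes 0.46 and 0.37). The 4 primed epiblast markers summed to 144 to 188 CPM in wt and 189 to 266 CPM in het on day 3, with 3 at an unadjusted p under 0.05. The 8 melanocyte and neural crest markers summed to 36.5 to 42.0 CPM in wt and 29.3 to 33.1 CPM in het on day 0, and overlapped on the other 3 days. Of the 5 tested on day 0, 4 were negative and 1 was positive, Pmel at a log2 fold change of 0.10. Only 1 of the 5, Foxd3 at -0.63, had an unadjusted p under 0.05. The part of these lists in the nonagouti values was not tested.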
